A study of Mus musculus with 2 samples.

Results

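Inhibitory neurons of the mouse locus coeruleus (LC) region were split by the messenger RNA of Slc6a5, which encodes the plasma membrane glycine transporter of glycinergic nerve terminals. Members were chosen by measured values, the UMIs of the genes in the rule that follows. An inhibitory cell was a barcode with at least 300 detected genes, at least 1500 unique molecular identifiers (UMIs) and at most 20% mitochondrial UMIs. It also carried at least 2 UMIs, and at least 5 per 10000, of Gad1, Gad2 and Slc32a1 together, no UMI of Slc17a6, and fewer than 10 per 10000 of Dbh, Slc6a2, Slc18a2 and Th together. The rule found 146 such cells among 3100 barcodes, of which 1677 passed the cell filters. In 24 of them at least 1 Slc6a5 UMI was counted (8 in library 1 and 16 in library 2), and they are called positive cells. The 122 others (20 and 102) had none and are called negative cells.

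All mice were wild-type C57BL/6N animals of 3 to 4 weeks and of both sexes, and they formed 1 group with 2 droplet libraries from the 10x Genomics Chromium system, labelled as batch 1 and batch 2. Both sides of the split therefore share genotype, age, tissue and library, and each library gave its own positive and negative sum. How many mice went into a library, and whether tissue was pooled, is not stated in the labels. They describe both methanol-fixed dissociated cells and sorted nuclei without saying which library came from which, so "cell" stands for either. The series text states 2578 cells, and its filter is not given in the sources used here.

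Fast inhibition in the brainstem is carried by GABA and by glycine, and many neurons release both. Gad1 and Gad2 make GABA, Slc32a1 loads GABA or glycine into synaptic vesicles, and Slc6a5 keeps the terminal supplied with glycine, so Slc6a5 message is the usual marker of a glycinergic neuron. Inhibitory neurons around the LC are known to contact noradrenergic neurons and to restrain their firing.

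The 4 sums held 125215 (positive, library 1), 295514 (negative, library 1), 79915 (positive, library 2) and 350303 UMIs (negative, library 2). Positive cells were deeper than negative cells in both libraries: the median was 15675.5 against 14168 UMIs in library 1 (a ratio of 1.11) and 4432 against 3038.5 in library 2 (1.46). No barcode was shared between the libraries. The 10 pan-neuronal markers summed to 3091, 3597, 3416 and 3982 CPM (UMIs per 1000000 UMIs of the sum), in the order just given, and every cell carried at least 1 of their UMIs. Cholinergic markers (Chat, Slc18a3 and Slc5a7) were at 0 in all 4 sums, microglial markers were at 0 in 3 of them and at 5.71 CPM in the remaining sum. Excitatory neuron markers summed to 7.99 and 3.38 CPM in library 1 and to 12.5 and 77.1 in library 2, where a negative cell reached 25.9 per 10000. Immature neuron markers gave 55.9 and 142 CPM and then 113 and 94.2. Granule neuron markers gave 47.9 and 115 CPM and then 75.1 and 68.5. The 8 oligodendrocyte markers did not keep their order: they summed to 136 CPM in positive against 1035 in negative cells of library 1, and to 938 against 417 in library 2. Single cells reached 101 per 10000 among the negative cells of library 1 and 174 per 10000 among the positive cells of library 2. The 5 markers of cerebellar inhibitory interneurons summed to 152 against 508 CPM in library 1 and 150.2 against 308 in library 2. Sorcs3, a sorting receptor and 1 of these 5, held 9 of their 19 UMIs in positive and 131 of 150 in negative cells of library 1, and 8 of 12 and 78 of 108 in library 2. Without it the other 4 markers gave 79.9 against 64.3 CPM in library 1 and 50.1 against 85.6 in library 2, in opposite orders. The 4 calls described below were kept with the cells rich in oligodendrocyte RNA left out (21 genes called). They were also kept with cells carrying Purkinje or granule cell markers left out (7 genes called). That rule kept 19 of the 20 negative cells of library 1 and every other cell of both libraries. It did not use the markers of cerebellar inhibitory interneurons, and the part of cells carrying those was not tested.

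The values that made the split are given as a description. In library 1 the positive cells carried 19 Slc6a5 UMIs, 1 to 5 per cell and 152 CPM, and 3 of the 8 cells rested on 1 UMI. In library 2 they carried 23, or 288 CPM, and 12 of the 16 cells rested on 1 UMI. Just inside the inhibitory gate, 2 cells of library 1 and 64 of library 2 had 2 or 3 UMIs of Gad1, Gad2 and Slc32a1, and just outside it 12 and 96 cells that met the cell filters and the Slc17a6 and noradrenergic limits were left out with 1 such UMI, of which 0 and 9 had a Slc6a5 UMI. A Slc17a6 UMI alone left out 4 and 5 cells. Positive cells made up 28.6% of the inhibitory cells of library 1 (exact Clopper-Pearson 95% interval 13.2 to 48.7%) and 13.6% of those of library 2 (7.95 to 21.1%). With every cell thinned to 1500 UMIs, a Slc6a5 UMI was left in 1 of 28 cells (3.57%, interval 0.0904 to 18.3%) and in 8 of 118 (6.78%, 2.97 to 12.9%). In library 2 the share was 5.77% below 3000 UMIs (3 of 52 cells) and 19.7% from 3000 UMIs on (13 of 66). The share thus moved with depth, and how many negative cells would show Slc6a5 at a greater depth was not measurable here.

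Oligodendrocytes, which should lack the transporter, gave the background of free RNA. Among those outside the inhibitory gate, a Slc6a5 UMI was seen in 0 of 40 in library 1 (median 9832.5 UMIs) and 0 of 357 in library 2 (median 2173.0 UMIs), which by a floor of 3 counts allows shares of up to 7.5% and 0.84%. In each library, 1 further cell met both the oligodendrocyte and the inhibitory rule, and that of library 2 is 1 of its 16 positive cells. The inhibitory cells had medians of 14168 and 3207.5 UMIs. Both unthinned inhibitory shares lay above these values, and intervals and floors cover counting error only.

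**Figure D1:**
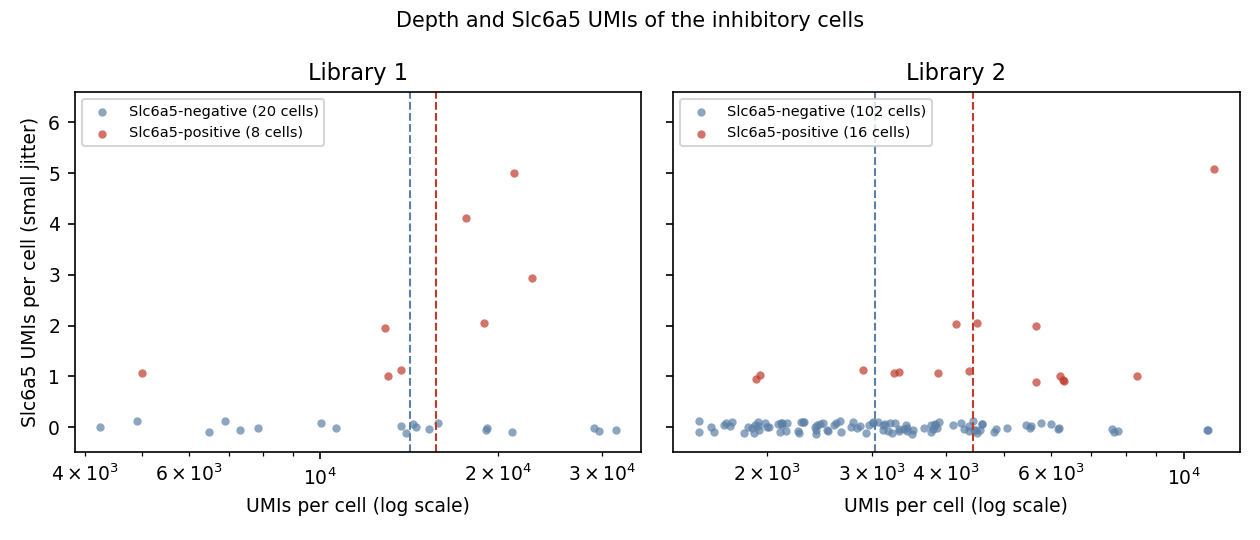
UMIs per cell (log axis) against Slc6a5 UMIs per cell for the 146 inhibitory cells of library 1 (left) and library 2 (right), with a small vertical jitter. Dashed lines are the medians of each side, 15675.5 and 14168 UMIs in library 1 and 4432 and 3038.5 in library 2, and most positive cells of library 2 sit at 1 Slc6a5 UMI.

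The genes that made the split were left out of the comparison. The 3 genes of the inhibitory gate were at similar levels on both sides: Gad1 at 319 and 332 CPM (positive and negative) in library 1 and 363 and 325 in library 2, Gad2 at 567 and 592 and then 563 and 642, and Slc32a1 at 144 and 189.5 and then 188 and 151. These levels follow from the gate and carry no test.

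Few genes passed the threshold, and with 4 sums a gene that did not pass was not shown to be equal on both sides. Of 4069 genes tested, 4 were lower in positive cells and none higher at an adjusted p under 0.05, so 0.0983% of the genes tested were called. Sox2ot, Zfp804b, Ralyl and Cdh8 were the genes called, and each was lower in the positive sum of both libraries. This agreement largely follows from the selection and adds no support, because the test favours genes whose side difference is alike in both libraries. At an unadjusted p under 0.05 the test gave 310 genes (7.62% of those tested), 143 higher (3.51%) and 167 lower (4.1%), and the median log2 fold of all tested genes was -0.00054. DESeq2 on the same sums called none, with 45 genes at an unadjusted p under 0.05. Folds below are positive over negative cells on the log2 scale, and levels are CPM of the sums. The p values are two-sided. The spread behind them is how far the difference between the sides varied between the 2 libraries, shared across genes. That variation may be technical.

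**Figure D2:**
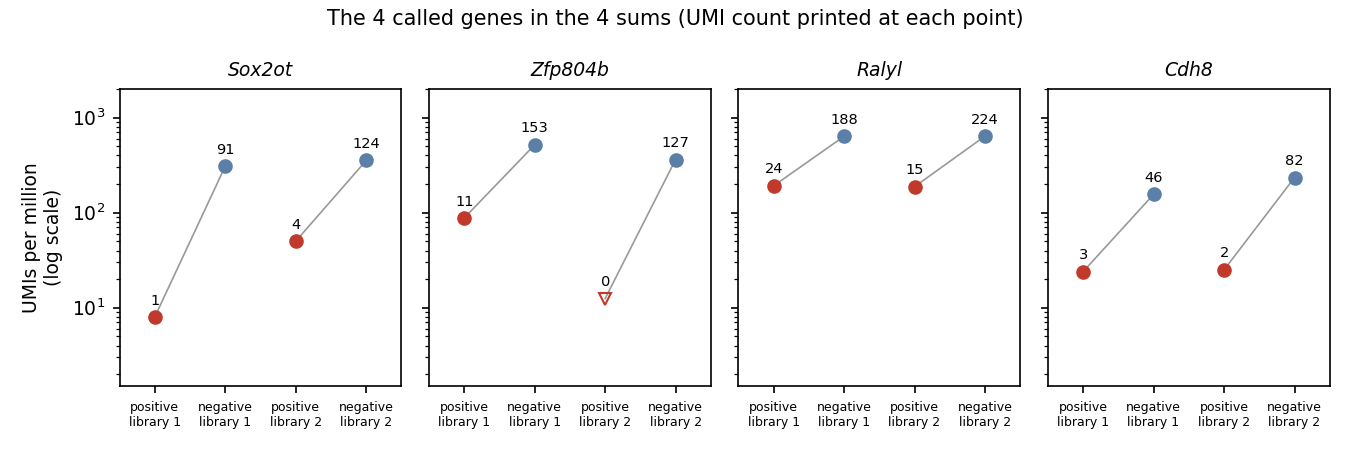
Level of the 4 called genes in the positive (red) and negative (blue) sums of each library, in CPM on a log axis, with the UMI count printed at each point and an open triangle at the level of 1 UMI where the count is 0. In each library the negative sum lies above the positive sum for all 4 genes.

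Sox2ot is a long noncoding RNA gene whose body spans the transcription factor gene Sox2 on the same strand (GRCm38 chr3:34104270-34682619, plus strand). Its UMIs numbered 1 in positive and 91 in negative cells of library 1, and 4 and 124 in library 2. The corresponding levels were 7.99 and 308 CPM, and 50.1 and 354 CPM. Both positive levels lay below both negative levels, which the call itself favours. The log2 fold was -3.67 ± 0.49 (SE, adjusted p = 0.0234), -4.18 in library 1 and -2.62 in library 2. UMIs were seen in 1 of 8 positive and 11 of 20 negative cells of library 1, and in 4 of 16 and 29 of 102 cells of library 2. At 1500 UMIs per cell the counts were 0 and 4 cells, and 1 and 21 cells. At equal depth the share of carrying cells in library 2 was thus lower on the positive side, 1 of 16 against 21 of 102. Without thinning, the gap there was mainly in UMIs per carrying cell. Each positive cell with Sox2ot had 1 UMI, while a negative cell had up to 17. In library 1 a single negative cell of 29571 UMIs held 53 of the 91 UMIs. Without that cell the log2 fold was -3.16 and the adjusted p 4.47e-05, in a range of 5.23e-12 to 0.447 over 13 alternatives, 9 of which kept the call. Sox2 itself gave only 1, 6, 0 and 2 UMIs in the 4 sums.

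Zfp804b encodes a zinc finger protein (chr5:6769010-7344756, minus strand, overlapping Tex47 on the other strand). It gave 11 UMIs in positive and 153 in negative cells of library 1, or 87.8 and 518 CPM. In library 2 it gave 0 and 127 UMIs, and the negative level was 362.5 CPM. No positive cell of library 2 carried it, against 39 of 102 negative cells. With a floor of 3 counts per library, it was at least 9.66-fold lower there. The log2 fold over both libraries was -3.14 ± 0.49 (adjusted p = 0.0475), and in library 1 alone it was -2.39. The same deep negative cell of library 1 held 82 of the 153 UMIs, and without it the log2 fold was -2.53 (adjusted p = 0.00026, range over 14 alternatives 1.59e-12 to 0.531, 7 of them called, with log2 folds of -8.19 to -2.53). In library 1, 2 of 8 positive and 7 of 20 negative cells had a UMI, so the shares of cells there were close and the negative UMIs sat in few cells.

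Ralyl encodes an RNA-binding protein related to the heterogeneous nuclear ribonucleoprotein RALY (chr3:13471655-14182287, plus strand). Its counts were 24 and 188 in library 1 and 15 and 224 in library 2. In levels this was 192 against 636 CPM and 188 against 639 CPM, so both libraries gave nearly the same pair of values. The log2 fold was -1.72 ± 0.28 (adjusted p = 0.0475), -1.63 in library 1 and -1.73 in library 2. Most library 1 cells carried Ralyl on both sides (7 of 8 positive, 19 of 20 negative), whereas in library 2 it was in 5 of 16 positive and 71 of 102 negative cells. At 1500 UMIs per cell it was left in 2 of 8 and 11 of 20 cells of library 1 and in 4 of 16 and 51 of 102 of library 2, so the positive share stayed below the negative share at equal depth. The call was kept in 6 of 14 alternatives (adjusted p from 1.47e-06 to 1.0).

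Cdh8 encodes a classical cadherin, an adhesion protein of the cell surface (chr8:99024471-99416471, minus strand). It gave 3 and 46 UMIs in library 1 and 2 and 82 in library 2. The levels were 24.0 and 156 CPM, and 25.0 and 234 CPM, again with positive sums below negative sums in both. Its log2 fold was -2.89 ± 0.48 (adjusted p = 0.0475), -2.27 and -2.82 in the single libraries. All 3 positive UMIs of library 1 came from 1 cell, and 2 of the 16 positive cells of library 2 had a UMI, against 11 of 20 and 39 of 102 negative cells. The call was kept in 6 of 13 alternatives (adjusted p from 9.29e-06 to 1.0), and the log2 fold was -1.64 with the stricter inhibitory gate of at least 4 UMIs and 10 per 10000. All 4 calls were lost with the barcodes of highest doublet score removed, which took 1 and 4 inhibitory cells and left 0 genes called (282 at an unadjusted p under 0.05), with adjusted p = 0.0728 for Sox2ot and 0.133 for each of the others. The log2 folds were then -3.98 for Sox2ot, -3.19 for Zfp804b, -1.74 for Ralyl and -2.94 for Cdh8, as large as with those cells.

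Another 15 genes had an adjusted p between 0.0648 and 0.0987, 6 with a positive and 9 with a negative log2 fold, and all 15 had the same sign in both libraries. They did not pass the threshold and were singled out after their values were seen. The test gives low p values to genes whose side difference agrees between the libraries. The shared sign therefore largely follows from the selection and adds no support. The 6 with positive folds were Sh3pxd2a, a scaffold of invasive membrane protrusions (log2 fold 1.84 ± 0.32), Pid1 (1.37 ± 0.25), the transcription factor gene Tshz2 (1.66 ± 0.32), the muscarinic receptor gene Chrm2 (1.73 ± 0.33), Ptchd4 (1.47 ± 0.29) and Inhba, an activin subunit (3.10 ± 0.64). Sh3pxd2a stood at 248 and 64.3 CPM in library 1 and at 263 and 79.9 in library 2. Pid1 was carried by 7 of 8 positive and 16 of 20 negative cells of library 1 and by 12 of 16 and 50 of 102 of library 2. Inhba rested on 10 and 3 UMIs in library 1 and 7 and 3 in library 2, with 3 and 4 positive cells carrying it.

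The 9 with negative folds were Zfhx3, Sorcs3, Ldb2, Etl4, Chrm3, Prr16, Xylt1, Gabrb1 and Cntn3. Zfhx3, a homeobox transcription factor gene of many neuron types, gave 3 and 162 UMIs in library 1 and 16 and 210 in library 2. Those 16 UMIs came from a single positive cell, and 15 of the 16 positive cells of library 2 had none. The log2 fold was -2.58 ± 0.46 (adjusted p = 0.0651), -4.03 in library 1 and -1.55 in library 2. Ldb2, a cofactor of LIM homeodomain proteins, gave 1 and 35 UMIs, then 0 and 25, a pooled ratio of 0.0525 with an exact counting interval of 0.00131 to 0.304. Sorcs3 stood at 71.9 and 443 CPM in library 1 and 100.1 and 223 in library 2 (log2 fold -1.97 ± 0.38, adjusted p = 0.0805). Prr16 had a log2 fold of -2.42 ± 0.50, and Cntn3, an adhesion protein of the contactin family, -2.01 ± 0.43. Xylt1, which starts proteoglycan sugar chains, had -1.93 ± 0.40 and Etl4 -1.59 ± 0.32. Together with the called genes the 15 make 19 genes, of which 13 had negative folds, against 2035 of all 4069 genes tested. Because the 19 were picked by their p values, the count is a description only.

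**Figure D3:**
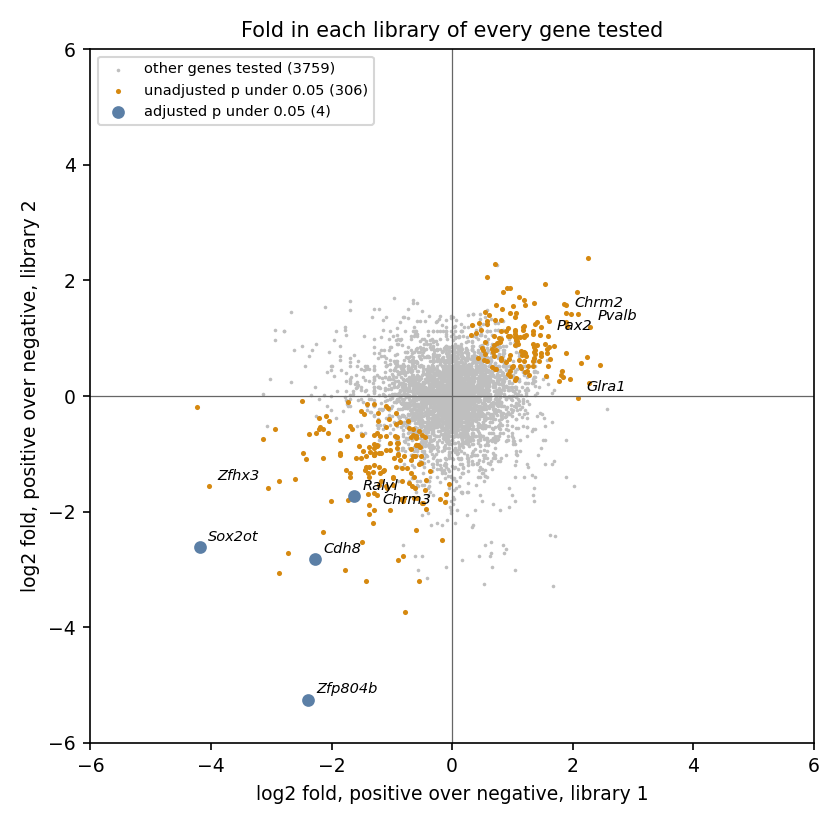
Log2 fold of positive over negative cells in library 1 (horizontal) and library 2 (vertical) for the 4069 genes tested, 1 point per gene. A prior count was added, scaled to the size of each sum and 2 on average. The 4 called genes lie in the lower left, the position of Zfp804b on the vertical axis depends on the prior count because its positive count there is 0, and the remaining 306 genes with an unadjusted p under 0.05 spread over both directions.

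Genes that handle glycine and GABA were measured on both sides with no call among the 8 tested of 20 and a median log2 fold of 0.14. Abat, which breaks down GABA, was at 192 and 186 CPM in library 1 and at 225 and 166 in library 2. Slc12a5, the chloride exporter that makes GABA and glycine inhibitory in mature neurons, was at 239.6 and 240.3 CPM in library 1 and at 125 and 251 in library 2. The astrocytic glycine transporter gene Slc6a9 gave 1, 5, 0 and 3 UMIs in the 4 sums, and the glial GABA transporter gene Slc6a11 5, 7, 2 and 4.

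Glycine receptors are built from the alpha subunits encoded by Glra1 to Glra4 and the beta subunit encoded by Glrb, which gephyrin (Gphn) anchors at the synapse. None of the 7 tested genes of this group of 11 was called, the median log2 fold was 0.05, and 2 had positive folds at an unadjusted p under 0.05. That is 28.6% of only 7 genes, against 7.62% of all genes tested. Glra1 gave 26 and 13 UMIs in library 1, or 208 and 44.0 CPM, in 6 of 8 and 6 of 20 cells. In library 2 it gave 7 and 31, or 87.6 and 88.5 CPM. The libraries thus differed, and the log2 fold of 1.25 ± 0.49 (adjusted p = 0.507) was 2.09 in library 1 and -0.03 in library 2. Glra2 gave 7 and 5 UMIs, then 7 and 17, and its log2 fold was 1.19 ± 0.54 (adjusted p = 0.642). Glra3 had no UMI in positive cells and 6 and 9 in negative cells, a bound of 1.59-fold with 3 counts over both libraries as the floor. The bound leaves out the spread between cells and in the negative count, so a lower level was not shown. Glrb stood at 119.8 and 223 CPM in library 1 and 188 and 126 in library 2, with opposite orders. Gphn was at 3905 and 4511 CPM in library 1 and 2027 and 2977 in library 2 (log2 fold -0.35 ± 0.23, adjusted p = 0.728).

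Among the GABA receptor subunits 10 of 17 were tested, none was called, and the median log2 fold was -0.25. Gabrb1, a beta subunit of the GABA-A channel, had the lowest p of the group. It stood at 136 and 386 CPM in library 1 and at 175 and 451 in library 2, a log2 fold of -1.41 ± 0.29 (adjusted p = 0.0891) with near equal folds of -1.39 and -1.33. All 8 positive cells of library 1 carried it, so the gap there was in UMIs per cell. The alpha subunit gene Gabra2 gave 2 and 15 UMIs and then 3 and 26, and Gabra3 gave 7 and 15 and then 3 and 26.

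Transcription factors record the progenitor domain of a hindbrain neuron, and Pax2 with Lhx1 and Lhx5 marks inhibitory neurons of the dorsal domains, while Gata2, Gata3, Tal1 and Sox14 mark other inhibitory lineages. Of 68 such genes 20 were tested and none was called, with a median log2 fold of -0.19. At an unadjusted p under 0.05 there were 2 positive and 2 negative folds, 20.0% of those tested against 7.62% of all genes tested. Pax2 was carried by 5 of 8 positive and 6 of 20 negative cells of library 1 and by 5 of 16 and 8 of 102 of library 2. Its levels were 136 and 40.6 CPM, and 87.6 and 37.1 CPM, so the positive sums were above the negative sums in both libraries. The log2 fold was 1.54 ± 0.45 with an adjusted p of 0.297, which does not pass. At 1500 UMIs per cell Pax2 was left in 2 of 8 and 1 of 20 cells of library 1 and in 4 of 16 and 4 of 102 of library 2. Lhx1 gave 5 and 5 UMIs and then 9 and 19, at 39.9 and 16.9 CPM and 113 and 54.2 CPM (log2 fold 1.11 ± 0.51, adjusted p = 0.644). Lhx5 was at 24.0 and 64.3 CPM in library 1 and 87.6 and 54.2 in library 2, in opposite orders.

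Genes of the Gata and Tal lineage were scarce. Gata3 gave no UMI in positive cells and 4 and 6 in negative cells, in 1 of 20 and 5 of 102 cells. A floor of 3 counts over both libraries puts the bound at 1.06-fold. That bound leaves out the spread between cells and in the negative count, so a lower level was not shown. Gata2 gave 2 UMIs in 1 negative cell of library 1, Tal1 gave 3 in library 2, and Sox14 gave 2 in library 1, all on the negative side. Pax8, Lbx1 and Ptf1a had no UMI in any sum, and Pax5 had 2, in 1 negative cell. None of these genes reached the count needed for the test. The early B-cell factors showed folds of opposite sign. Ebf3 stood at 607 and 199.7 CPM in library 1 and 438 and 274 in library 2 (log2 fold 1.18 ± 0.29, adjusted p = 0.177). Ebf1 stood at 272 and 423, then 175 and 319.7, with a log2 fold of -0.70 ± 0.28 (adjusted p = 0.534), and 0.046 with the stricter gate.

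Calcium-binding proteins and subtype markers are used to tell interneuron classes apart. Of 18 genes 7 were tested and none was called, the median log2 fold was 0.63, and 2 had positive folds at an unadjusted p under 0.05. That is 28.6% of only 7 genes, against 7.62% of all genes tested. Pvalb encodes parvalbumin, the calcium buffer of many fast-firing neurons. It gave 22 and 9 UMIs in library 1 and 9 and 15 in library 2. Its levels were 176 and 30.5 CPM, and 113 and 42.8 CPM, with both positive sums above both negative sums (log2 fold 2.00 ± 0.45, adjusted p = 0.127). Those UMIs came from 3 of 8 positive and 4 of 20 negative cells of library 1, and from 4 of 16 and 7 of 102 of library 2. In library 2, 6 of the 9 positive UMIs (66.7%) were from 1 cell. Synpr, a synaptic vesicle membrane protein, had a log2 fold of 1.30 ± 0.40 (adjusted p = 0.323), with 144 and 44.0 CPM and then 150.2 and 79.9. Calb2, which encodes calretinin, stood the other way in both libraries, at 24.0 and 57.5 CPM and 37.5 and 54.2 CPM, on 3, 17, 3 and 19 UMIs. Calb1 gave 5 UMIs, all in negative cells of library 2, Nos1 gave 4, 6, 0 and 8, and Kit gave 2, 11, 0 and 5. Pax2 and Pvalb were seen together in 2 of 8 positive cells of library 1 and 2 of 16 of library 2.

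**Figure D4:**
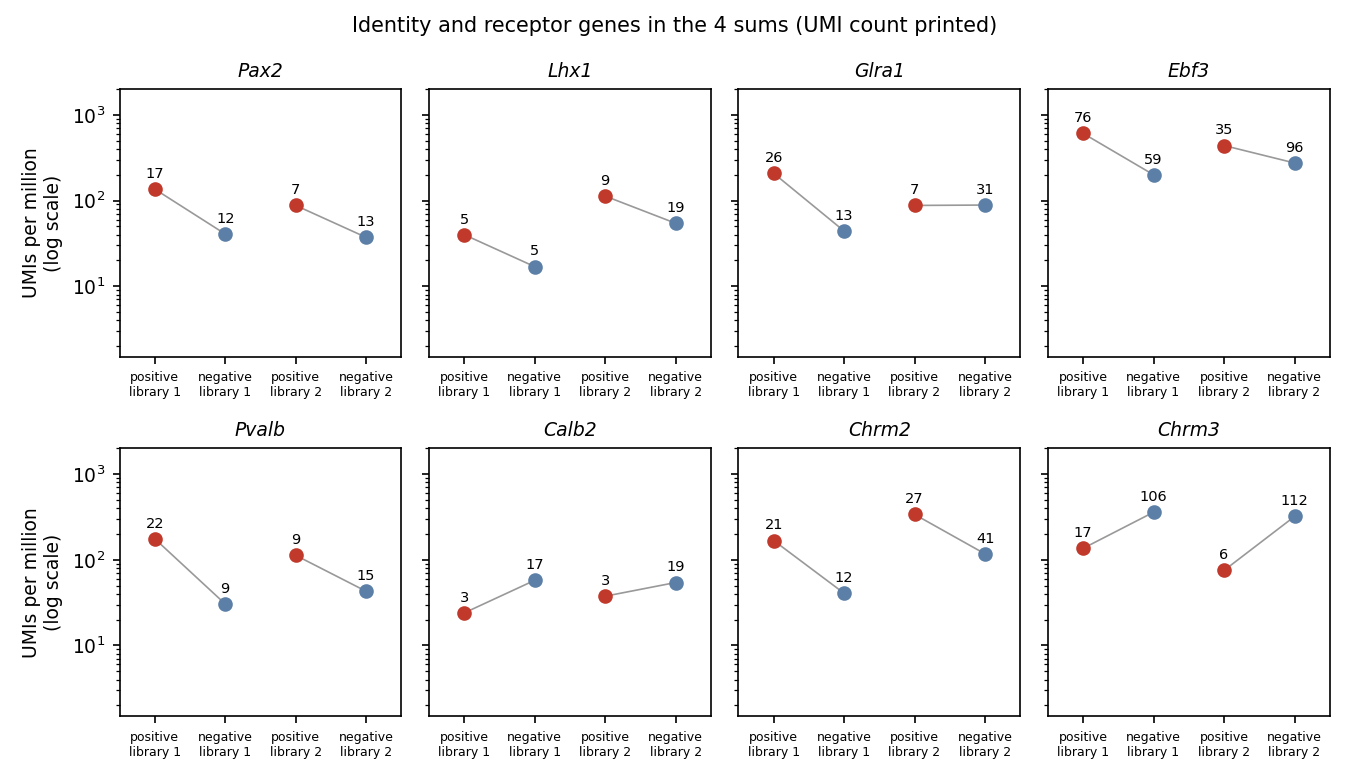
Level of 8 identity and receptor genes in the positive (red) and negative (blue) sums of each library, in CPM on a log axis with the UMI count printed at each point. Pax2, Lhx1, Ebf3, Pvalb and Chrm2 lie above the negative sum in both libraries and Calb2 and Chrm3 below it, Glra1 lies above it in library 1 only, and none of the 8 passed the test.

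Receptors for acetylcholine and the amines set how arousal systems act on these cells. Of 32 genes 6 were tested and none was called, the median log2 fold was -0.45, and 1 positive and 2 negative folds had an unadjusted p under 0.05. Chrm2 encodes the M2 muscarinic receptor, which couples to inhibitory G proteins. It stood at 168 and 40.6 CPM in library 1 and 338 and 117 in library 2, in 4 of 8 and 6 of 20 cells and in 9 of 16 and 31 of 102 cells (adjusted p = 0.0805). Chrm3 encodes the M3 receptor, which activates phospholipase C, and it stood the other way. Its levels were 136 and 359 CPM, then 75.1 and 319.7 CPM, with a log2 fold of -1.62 ± 0.33 (adjusted p = 0.0891). With depth-matched negative cells the Chrm3 fold was -0.96 (adjusted p = 0.453), and with the stricter gate it was also -0.96 (0.651). A single negative cell held 53.8% of the library 1 negative UMIs of Chrm3. The serotonin receptor gene Htr2c stood at 199.7 and 335 CPM and 150.2 and 457 CPM (log2 fold -1.09 ± 0.31, adjusted p = 0.297), and its fold was 0.07 with depth-matched negative cells. Adrenergic receptors were scarce: Adra1b gave 0, 1, 0 and 3 UMIs, Adra2a 4, 2, 0 and 0 and Adrb1 0, 3, 0 and 1.

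Neuropeptide genes were nearly all too low to test, with 2 of 43 precursors and 1 of 50 receptors tested and none called. Penk, the enkephalin precursor gene, stood at 119.8 and 108 CPM in library 1 and at 25.0 and 28.5 in library 2, close on both sides of each library. Pnoc, the nociceptin precursor gene, gave 9, 14, 2 and 5 UMIs, and the somatostatin gene Sst gave 1, 14, 8 and 10, in opposite orders. Nts, the neurotensin gene, gave 9 and 4 UMIs, all in negative cells, whereas Cck, the cholecystokinin gene, gave 4 and 2, all in positive cells (2 cells of library 1 and 1 of library 2). Npy gave 5 UMIs, all from 1 negative cell of library 1. Pdyn had no UMI in any sum, Tac1 had 3 in all, Gal 3 and Crh 2. The galanin receptor gene Galr1 gave 0, 4, 3 and 7 UMIs. Apart from Penk, none of the genes named here reached the count needed for the test.

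Among potassium and HCN channel genes 33 of 52 were tested, none was called and the median log2 fold was 0.06. At an unadjusted p under 0.05 there were 3 positive and 2 negative folds. This is 15.2% of those tested, against 7.62% of all genes tested. Kcnip1, an auxiliary subunit of A-type potassium channels, had a log2 fold of -1.73 ± 0.39 (adjusted p = 0.127), with 79.9 and 230.1 CPM in library 1 and 37.5 and 183 in library 2. Its relative Kcnip4 went the other way, at 2420.0 and 1529.5 CPM and 4079 and 2923 CPM (log2 fold 0.59 ± 0.23, adjusted p = 0.507). Kcnmb2, a subunit of calcium-activated channels, had -1.29 ± 0.38 (adjusted p = 0.297), and Kcna4 had 1.64 ± 0.61 on 9, 5, 4 and 8 UMIs (adjusted p = 0.471).

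Sodium and calcium channel genes gave no call in 25 tested of 33, with a median log2 fold of -0.06. At an unadjusted p under 0.05 there were 1 positive and 1 negative fold, 8.0% of those tested and near the 7.62% of all genes tested. Scn1a, the sodium channel known from fast-firing inhibitory neurons, stood at 455 and 233 CPM in library 1 and 513 and 354 in library 2 (log2 fold 0.77 ± 0.27, adjusted p = 0.43). It was seen in all 8 positive and in 17 of 20 negative cells of library 1, and in 11 of 16 and 61 of 102 cells of library 2. Cacng4, an auxiliary subunit of AMPA receptors, did not reach the count needed for the test and was noticed after its values were seen. It had no UMI in positive cells and 14 and 37 in negative cells, in 8 of 20 and 28 of 102 of them, which is at least 5.4-fold lower with 3 counts over both libraries as the floor.

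Glutamate receptor genes gave no call in 22 tested of 25, a median log2 fold of -0.24 and 2 negative folds at an unadjusted p under 0.05. Those 2 are 9.09% of the genes tested here, near the 7.62% of all genes tested. Grm7, a presynaptic metabotropic receptor, stood at 487 and 805 CPM and 663 and 1350.3 CPM (log2 fold -0.85 ± 0.25, adjusted p = 0.297). Grik4, a kainate receptor subunit, had -0.85 ± 0.29 (adjusted p = 0.424), and -0.24 with depth-matched negative cells and -1.90 with the stricter gate. For vesicle release genes 29 of 37 were tested, none was called, the median log2 fold was 0.10, and 3 negative folds (10.3%) had an unadjusted p under 0.05. Syt1, the calcium sensor of fast release, stood at 447 and 704 CPM in library 1 and 338 and 1162 in library 2 (log2 fold -1.15 ± 0.30, adjusted p = 0.224). Its fold was -0.41 with depth-matched negative cells and 0.045 with the stricter gate. Syt2 and Vamp1, release genes of fast synapses, gave no common order: Syt2 was at 24.0 and 139 CPM in library 1 and at 188 and 57.1 in library 2, and Vamp1 at 31.9 and 33.8 and then 75.1 and 54.2. Synapse organisers gave no call in 20 tested of 32 and a median log2 fold of -0.13. Clstn2, a calsyntenin, had 1.16 ± 0.27 (adjusted p = 0.14), at 783 and 491 CPM and 1101 and 359.7 CPM.

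Cadherins, protocadherins, contactins and axon guidance genes decide which cells a neuron contacts and where its axon goes. Cdh8 was the only called gene of the 57 tested of 65, the median log2 fold was -0.32, and 8 positive and 15 negative folds had an unadjusted p under 0.05, which is 40.4% of the group against 7.62% of all genes tested. The list was drawn up with earlier results of these data known, so the share is a description. Receptors and ligands of the same systems had folds of both signs. The Slit receptor gene Robo2 stood at 631 and 294 CPM in library 1 and 676 and 383 in library 2. Its log2 fold was 0.98 ± 0.25 (adjusted p = 0.208), and 0.0047 ± 0.75 in thinned cells. For that setting the sides were drawn anew by the Slc6a5 UMIs left after thinning. Positive cells then numbered 1 and 8 in the 2 libraries and negative cells 27 and 110, so the contrast is not the same. Of the Robo2 ligands, Slit1 had -1.83 ± 0.49 (adjusted p = 0.244) and Slit2 0.90 ± 0.29 (adjusted p = 0.355). Slit1 gave 5 and 48 UMIs and then 2 and 26, and Slit2 gave 31 and 43 and then 26 and 57.

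The netrin receptor genes also divided. Unc5d stood at 303.5 and 782 CPM in library 1 and 300.3 and 599.5 in library 2 (log2 fold -1.17 ± 0.27, adjusted p = 0.127). Unc5c stood at 535 and 399 and then at 976 and 434 (log2 fold 0.82 ± 0.26, adjusted p = 0.355). Nrp1, a semaphorin coreceptor, gave 1 and 20 UMIs and then 1 and 36, a pooled ratio of 0.112 with an exact counting interval of 0.0133 to 0.426 and an adjusted p of 0.154. Sema3e, a secreted semaphorin, had a log2 fold of 1.82 ± 0.48 on 12, 6, 9 and 14 UMIs (adjusted p = 0.224). The ephrin receptor gene Ephb1 (-1.76 ± 0.46, adjusted p = 0.214) and the netrin-G gene Ntng1 (-1.25 ± 0.36, adjusted p = 0.297) were on the negative side. For Ephb1 the fold was -3.14 in library 1 and -0.74 in library 2, so its size differed between libraries. Pcdh9, an abundant protocadherin gene, stood at 6533 and 4183 CPM and 8171 and 4388 CPM (log2 fold 0.79 ± 0.23, adjusted p = 0.297). Its fold was -0.78 ± 0.84 in thinned cells, with the sides drawn anew as for Robo2.

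The remaining lists gave no call. Growth factor genes had 11 of 26 tested and a median log2 fold of -0.17, and neurofilament and perineuronal net genes 5 of 13 and 0.12. Genes that respond to dissociation had 7 of 15 tested, all with positive folds, and a median of 0.38. Among all 4069 genes tested, 2034 had positive folds. Egr1, an immediate early gene and the only member with an unadjusted p under 0.05, stood at 415 and 206 CPM there and 188 and 151 in library 2 (log2 fold 0.76 ± 0.30, adjusted p = 0.507). Nuclear RNAs had 6 of 7 tested and a median of -0.25, and mitochondrial UMIs had medians of 3.86 and 3.78% in library 1 and 5.28 and 4.44% in library 2 (positive and negative cells). The part of these measures in the results above was not tested.

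The number of calls moved with the setting, from 0 to 54 over 14 alternatives. The 4 called genes kept their direction in every alternative in which they could be tested. All alternatives draw on the same inhibitory cells, so the kept direction is no independent support. Leaving out the deep negative cell of library 1 that was rich in Sox2ot and Zfp804b, an alternative added after seeing the data, gave 17 higher and 22 lower genes that included the 4. Requiring 3000 UMIs gave 21 higher and 28 lower, and matching each positive cell to the negative cell of nearest depth gave 10 higher and 14 lower, again with all 4. Requiring at least 2 Slc6a5 UMIs, which left 5 and 4 positive cells, gave none (174 genes at an unadjusted p under 0.05).

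**Figure D5:**
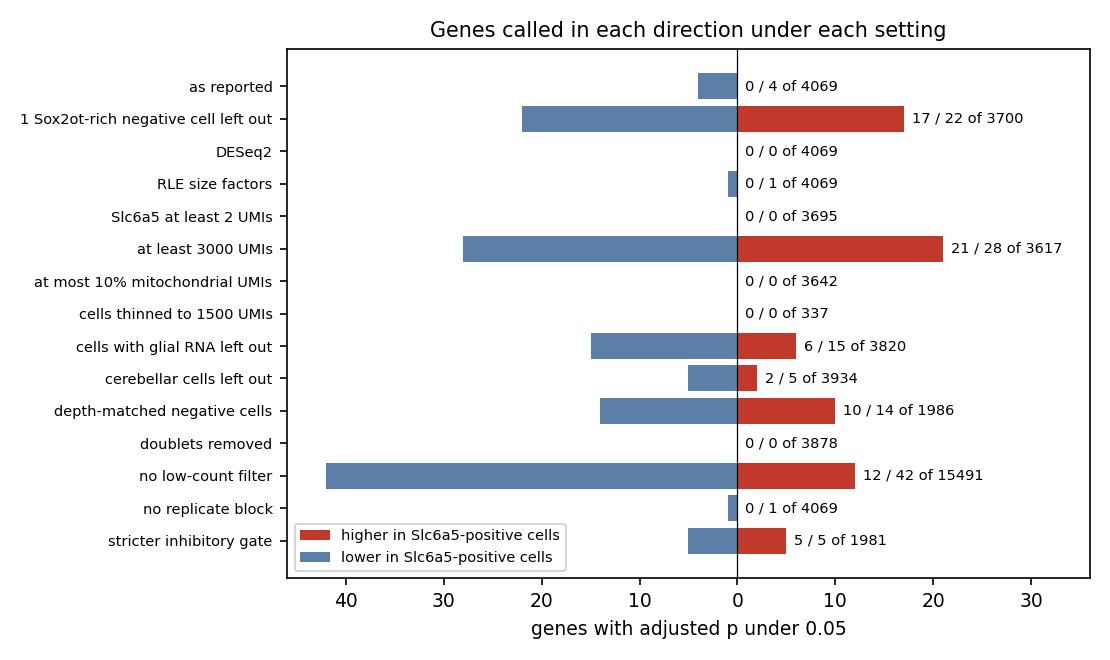
Number of genes called higher (red, to the right) and lower (blue, to the left) in positive cells at an adjusted p under 0.05, for the comparison as reported (0 and 4) and for each alternative, with the counts and the number of genes tested printed. Calls range from 0 to 54, and lower calls are at least as many as higher calls in each row.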

How the data were processed

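The authors deposited matrices of counts, 1 whole number of UMIs per gene and barcode for each library, with no normalization. Per the file headers they came from Cell Ranger 6.1.2, while the submitters' processing notes name Cell Ranger 7.0, Seurat, mm10 and GRCm38. Intron and strand settings are not given in the sources used here. Gene positions are from GENCODE M21 (99.61% of 32285 features matched).

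UMIs were summed per side and library and tested with edgeR 4.0.16 (quasi-likelihood, TMM, filterByExpr, library as block, R 4.3.3), leaving out the 9 gate genes and mitochondrial genes, with Benjamini-Hochberg adjustment over 4069 genes. The block was used because both sides come from each library. With 1 residual degree of freedom, spread is shared across genes, and each SE is the absolute log2 fold divided by the root of the F statistic. Folds of single libraries use a prior count, scaled to the size of each sum and 2 on average, and have no test. The script was tested on simulated sums with the same spread for every gene. It called 15.0% of the genes given a 2-fold change and 72.0% of those given a 4-fold change. Doublets were not removed in the main comparison. Scrublet in scanpy 1.11.5 (0.8% per 1000 barcodes), DESeq2 1.42.0 and other settings were alternatives.

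Members and gene lists were chosen with earlier results of these data known. Genes named are those called with 1 sign in both libraries, at least 30 UMIs and 3 carrying cells per library on the higher side, called or highest members of each list, and a fixed set. The 15 next genes, Cacng4 and list members singled out by p or by count were chosen after their values were seen. Results for 2 list members are not reported here.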

Additional observations from a re-analysis of the deposited data

Results flagged for a closer look

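Slc6a5 UMIs were also counted in cells that passed the cell filters but not the inhibitory gate, which the comparison did not use. They were seen in 6 of 267 such cells of library 1 (2.25%, exact 95% interval 0.829 to 4.83%; median 10946 UMIs) and in 18 of 1264 of library 2 (1.42%, 0.846 to 2.24%; median 2580.0 UMIs). These shares lie above the 0 of 40 and 0 of 357 oligodendrocytes outside the gate, although those of library 1 are few and by a floor of 3 counts allow up to 7.5%. Cells with 2 or more UMIs of Gad1, Gad2 and Slc32a1 that failed another part of the gate held 4 of 22 and 3 of 24, and 2 and 1 of these also had a Slc17a6 UMI. Cells with 1 such UMI, whatever else they failed, held 0 of 29 and 9 of 122 (7.38%, 3.43 to 13.5%), and cells with none held 2 of 216 and 6 of 1118. No test was made of what these cells are.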

How the results depend on the processing

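The 4 calls became 0 with DESeq2 (45 genes at an unadjusted p under 0.05), with at least 2 Slc6a5 UMIs (174), at most 10% mitochondrial UMIs (244), cells thinned to 1500 UMIs (12 of only 337 genes tested) and doublets removed (282). In the thinned setting the sides were drawn anew by the Slc6a5 UMIs left, with 1 and 8 positive cells. The log2 folds with DESeq2, at most 10% mitochondrial UMIs or doublets removed stayed near those reported: -3.98 to -3.74 for Sox2ot, -3.51 to -2.79 for Zfp804b, -1.74 to -1.60 for Ralyl and -2.94 to -2.73 for Cdh8. The calls became 1 with RLE size factors and 1 with no replicate block (Sox2ot in both). They became 7 with cells carrying Purkinje or granule cell markers left out, and 10 with a stricter inhibitory gate (2 shared with the 4). With cells rich in glial RNA left out they became 21, and with depth-matched cells 24. They became 39 without the Sox2ot-rich cell, 49 from 3000 UMIs on and 54 with no low-count filter. The cause was not tested; the prior degrees of freedom were 11.5 as reported, 61.8 without that cell and infinite from 3000 UMIs on. Leaving out a library leaves no residual degree of freedom and no count. Of 733 alternative values for 50 gene folds, 5 reversed sign: Glra1 (from -0.029 in library 2 alone to 2.09 in library 1 alone), Ebf1 (0.046) and Syt1 (0.045) with the stricter gate, Htr2c with depth-matched cells (0.067) and Pcdh9 in thinned cells (-0.78). Those values come from the same cells and are not independent. The share with Slc6a5 moved to 3.57% and 6.78% when thinned. With 8 and 16 positive cells, depth limits every list of scarce genes.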
